A study of Mus musculus with 6 samples.

Results

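The transcripts described here are 10 RNAs read from the mitochondrial genome of the mouse, taken by name from the deposited table: the mRNAs mt-Nd1, mt-Nd2, mt-Nd4, mt-Nd5, mt-Cytb, mt-Co1, mt-Co2, mt-Co3 and mt-Atp6, and the large ribosomal RNA mt-Rnr2. All 10 were present among 18491 genes, of which 36 rows are mitochondrially encoded. RNA sequencing was done on bone marrow cells that the labels call haematopoietic stem progenitor cells, isolated by FACS. The comparison is between 3 wild-type and 3 Robo1 knockout libraries. The series describes the knockout as made with Mx1-cre, an interferon-responsive Cre recombinase, after 3 doses of poly(I:C), an RNA mimic that induces interferon, and cells were collected 8 months after injection. The labels do not say whether the wild-type mice carried the Cre transgene. Sample titles and the treatment field instead name the groups as scramble shRNA control and knockdown of ROBO1, ROBO2 or ROBO3, so the wording of the labels is not uniform. The groups follow the description field. Nothing states that the libraries came from separate animals, so the p-values reflect variation among these libraries alone, possibly technical. Robo1 itself was not analysed here, so the genotype was not checked against its transcript.

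Mitochondrial DNA is transcribed from both strands as long precursors that run through most of the genome. The precursors are cut at the tRNAs that lie between the coding genes, and the released mRNAs receive short poly(A) tails. The proteins they encode are core subunits of respiratory complexes I, III, IV and V, which are completed by many subunits from nuclear genes. Because genes on one strand share a precursor, differences in level between them are known to arise largely after transcription, through processing and stability. Quiescent blood stem cells are known for relying little on respiration, and its use increases as they differentiate.

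The sequences show first how far each transcript can be told apart from its nuclear copies. Stretches of mitochondrial DNA have been copied into nuclear chromosomes in evolution, and in the GENCODE vM21 annotation of GRCm38 7 annotated pseudogenes matched a mitochondrial transcript at 99% identity or more. All 7 lay side by side on chromosome 1, between 24611535 and 24616197 on the minus strand. They covered 5 members, namely mt-Co1 in part, mt-Co2, mt-Atp6, mt-Co3 and mt-Nd4 in part. The other 5 members, mt-Rnr2, mt-Nd1, mt-Nd2, mt-Nd5 and mt-Cytb, had no annotated copy above that identity. Of the pairs of at least 90% identity, 10 lay below it, the closest at 97.6%. The windows below are shown because they separate a member that reads cannot distinguish from its copy from members they can. Each has 60 bases, and capitals mark bases that differ between gene and copy.
mt-Co3 (chrM:8802-8861, plus strand): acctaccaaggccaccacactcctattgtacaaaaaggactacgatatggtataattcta
Gm28437 (chr1:24613717-24613776, minus strand): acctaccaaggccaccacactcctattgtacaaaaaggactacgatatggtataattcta
mt-Nd2 (chrM:4569-4628, plus strand): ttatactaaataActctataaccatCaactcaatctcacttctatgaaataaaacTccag
Gm13339 (chr2:22590347-22590406, minus strand): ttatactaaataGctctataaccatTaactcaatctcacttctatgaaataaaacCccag
mt-Cytb (chrM:14431-14490, plus strand): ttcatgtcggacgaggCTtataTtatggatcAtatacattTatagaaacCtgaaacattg
Gm11410 (chr4:80004275-80004334, plus strand): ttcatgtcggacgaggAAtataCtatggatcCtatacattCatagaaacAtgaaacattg

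The mt-Co3 window held 0 differences, and the alignment with Gm28437 was 100% identical over 783 bases. The mt-Nd2 window held 3 differences, in an alignment of 510 bases at 96.7% identity. The mt-Cytb window held 6, in an alignment of 1142 bases at 92.9% identity.

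The deposited counts showed the same division. Gm28437 had 147900, 197250 and 238158 counts in wild type, against 149507, 196385 and 239854 for mt-Co3. In knockout it had 633708, 596428 and 476924, against 626623, 589202 and 478039. The copy thus stood at 98.9 to 101 counts per 100 counts of mt-Co3 in every library. Gm28661 stood at 98.3 to 99.7 per 100 counts of mt-Co2, and Gm10925 at 102 to 103 per 100 counts of mt-Atp6. The partial copies gave less, with Gm29216 at 28.9 to 32.6 per 100 counts of mt-Co1 and Gm28439 at 20.4 to 28.2 per 100 counts of mt-Nd4. By contrast Gm13339, the diverged copy of mt-Nd2, stood at 0.561 to 0.799 per 100 counts. The table does not say whether a read that fits both places was counted in each row or given to one. The levels of these 5 members, and the separate values of each pair, are therefore uncertain. On the log2 scale mt-Co3 changed by 2.73 and Gm28437 by 2.75, with 2.74 for their sum. The partial copies differed more from their genes, with 1.74 for Gm29216 against 1.86 for mt-Co1, and 1.59 for Gm28439 against 1.29 for mt-Nd4. With copies summed in, mt-Co1 changed by 1.83 and mt-Nd4 by 1.35.

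**Figure D1:**
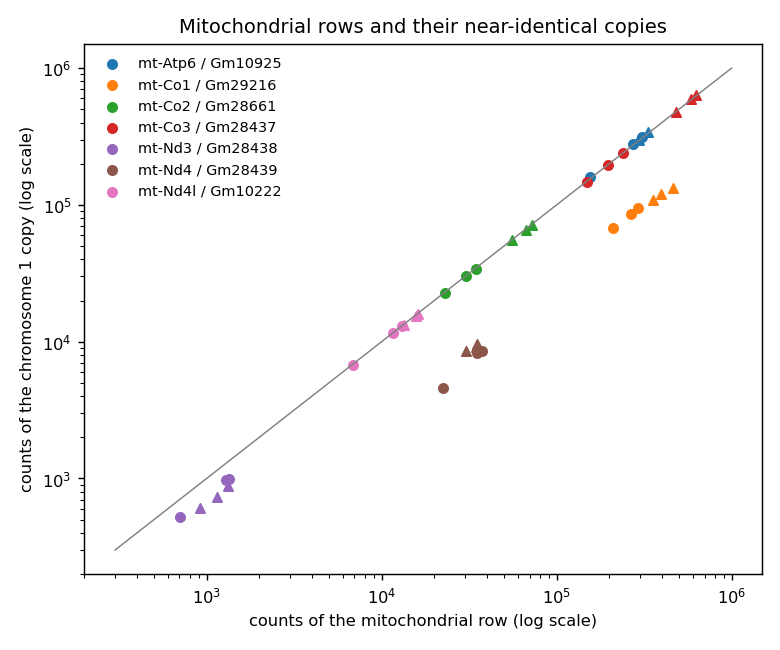
Counts of 7 mitochondrial rows (horizontal axis, log scale) against counts of their near-identical chromosome 1 copies (vertical axis, log scale), with circles for wild-type and triangles for knockout libraries and a grey line of equality. The pairs of mt-Co2, mt-Atp6, mt-Co3 and mt-Nd4l lie on the line, and those of mt-Co1, mt-Nd3 and mt-Nd4 lie below it.

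A further feature of the sequences is how the mRNAs end. Mitochondrial mRNAs often lack a full stop codon in their DNA, and the poly(A) tail supplies the missing bases. The 3′ ends of the mRNAs are printed because the annotated genes of the transcripts compared differ in this respect. Capitals mark the stop codon, or the part of it that the annotated gene holds.
mt-Nd1 (chrM:3681-3707): acagcgggagtaccaccatacataTAG
mt-Nd2 (chrM:4925-4951): cccctagccccccaactaattaccTAG
mt-Co1 (chrM:6846-6872): gaaccaacctatgtaaaagtaaaaTAA
mt-Co2 (chrM:7670-7696): gaaaactgatctgcttcaataattTAA
mt-Atp6 (chrM:8581-8607): agcctatatctacatgataatacaTAA
mt-Co3 (chrM:9366-9390): gtctccatttattgatgaggatctT
mt-Nd4 (chrM:11520-11544): aaactaattacaggcctgacaataT
mt-Nd5 (chrM:13539-13565): atcttatactcaattaatctcgagTAA
mt-Cytb (chrM:15264-15288): gacaaaatactaaaattatatccaT

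In the annotation mt-Co3, mt-Nd4 and mt-Cytb end in a lone T, and the genes of the other 6 mRNAs hold a full stop codon. The log2 fold changes of the 3 with a lone T were 2.73, 1.29 and 1.52. The annotated ends of mt-Nd1 at 3707 and mt-Nd2 at 4951 overlap the starts of mt-Ti at 3706 and mt-Tw at 4950, on the same strand. Cutting at these tRNAs would take bases of both stop codons, and the ends of the released mRNAs were not examined. All 10 members are encoded on the plus strand of the annotation and are 681 to 1824 bases long.

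The 10 transcripts together took up more of the knockout libraries. Their summed counts were 2.31%, 2.84% and 2.99% of all counts in wild type, against 4.33%, 4.38% and 4.81% in knockout. Every knockout library lay above every wild-type library, by 1.67-fold on average (exact permutation test, two-sided, p = 0.10, the smallest that 3 against 3 allows). With the near-identical copies summed in, the means were 3.78 ± 0.501% and 6.65 ± 0.345% (SD, n = 3 each). In bulk RNA, more cells with many mitochondrial transcripts and more such RNA per cell cannot be told apart.

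Total counts ran from 42235077 to 58106099 per library. The libraries differed in more than mitochondrial RNA: the 100 most abundant genes held 42.3 to 43.3% of counts in wild type and 59.7 to 60.8% in knockout, and 17418 to 17671 against 16232 to 16609 genes had a count. The direction of a gene can then depend on the scaling, and both scalings are given. TMM sets libraries against each other by the bulk of the genes, and total-count scaling by all reads. The median log2 fold change of all genes was -0.09 with TMM and -1.22 with total counts.

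With TMM scaling 9 of the 10 members rose in edgeR's quasi-likelihood test (Benjamini-Hochberg adjusted p under 0.05 over 15474 genes), against 17.2% of all genes called higher and 31.7% called in either direction. No member was called lower, against 14.4% of all genes. The tenth, mt-Nd2, did not pass. The members' median log2 fold change was 1.59. All 10 had groups that did not overlap in CPM, higher in knockout, as did 22.2% of all genes. Under total-count scaling 7 members passed as higher and 2 as lower, against 4.23% and 70.7% of all genes, at a member median of 0.46. By share of all counts 7 members were higher without overlap, 1 was lower and 2 overlapped, against 4.85% of all genes higher and 76.1% lower. DESeq2 called all 10 members higher, where it called 15.6% of genes higher and 27.5% in either direction. With fold changes corrected for length and GC content 9 were called higher (18.1% of genes higher, 29.5% in either direction). With nuclear copies summed in also 9 were called higher (17.2% of genes higher, 31.6% in either direction). The size differed widely between transcripts that share a precursor, and they are described below by the complex they belong to.

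**Figure D2:**
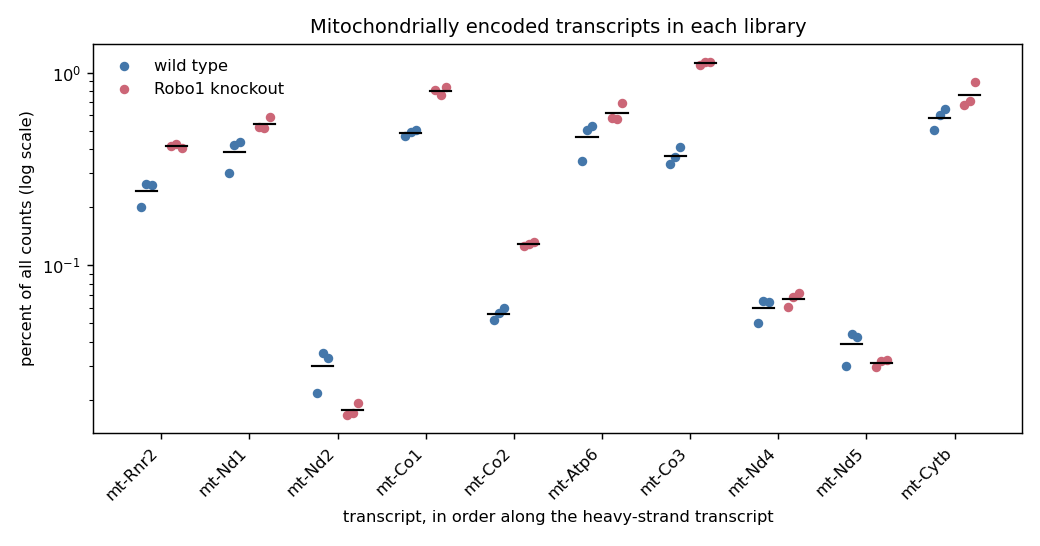
Percent of all counts (vertical axis, log scale) for each transcript in each library, in genome order, with blue points for wild type, red points for knockout and black bars for group means. The groups do not overlap for 8 transcripts, of which mt-Nd2 is lower in knockout, and they overlap for mt-Nd4 and mt-Nd5.

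Cytochrome c oxidase, complex IV, passes electrons to oxygen. mt-Co3, which encodes a core subunit without a redox centre, changed most of the 10. It held 0.335%, 0.364% and 0.413% of all counts in wild type, against 1.10%, 1.14% and 1.13% in knockout. The knockout libraries lay close together and well above the wild-type ones. The rise was 6.66-fold with TMM (log2 2.73, SE 0.07, edgeR adjusted p = 3.26e-08) and 3.03-fold with total counts. Only 108 of the 15474 genes tested had a larger log2 fold change.

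mt-Co2, the subunit that receives electrons from cytochrome c, held 0.0517%, 0.0562% and 0.0595% of counts in wild type, against 0.126%, 0.129% and 0.131% in knockout. It rose 5.06-fold with TMM (log2 2.34, SE 0.06, edgeR adjusted p = 3.26e-08) and 2.31-fold with total counts. mt-Co1, the catalytic subunit, held 0.470%, 0.491% and 0.502% in wild type, against 0.808%, 0.767% and 0.837% in knockout. Its rise was 3.62-fold with TMM (log2 1.86, SE 0.06, edgeR adjusted p = 5.35e-08) and 1.65-fold with total counts. The 3 subunits of one enzyme thus moved in the same direction under both scalings, by different amounts.

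Ratios between rows do not depend on scaling. There were 0.714, 0.741 and 0.822 counts of mt-Co3 per count of mt-Co1 in wild type, against 1.36, 1.49 and 1.35 in knockout. mt-Co2 per mt-Co1 went from 0.114 ± 0.00423 to 0.160 ± 0.00652 (SD, n = 3 each). For each ratio the groups did not overlap (exact permutation p = 0.10, adjusted over 7 ratios p = 0.117). The 7 ratios were not among the planned comparisons, so their p-values are descriptive. A correction of the counts for length and GC content removed the lead of mt-Co2 over mt-Co1, since their log2 fold changes were then 1.81 and 1.90.

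Complex I, which takes electrons from NADH, has 4 members here, and they split. mt-Nd1 held 0.300%, 0.421% and 0.437% of counts in wild type, against 0.522%, 0.518% and 0.590% in knockout. It rose by a log2 fold change of 1.63 with TMM (SE 0.12, edgeR adjusted p = 6.71e-06) and 0.49 with total counts, a call under both.

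mt-Nd2, encoded in the same precursor as mt-Nd1 and separated from it only by tRNA genes, went another way. It held 0.0216%, 0.0348% and 0.0328% of counts in wild type, against 0.0166%, 0.0171% and 0.0192% in knockout, with every knockout library below every wild-type library. With TMM its CPM was 151, 230 and 220 in wild type, against 252, 249 and 282 in knockout (log2 0.38, SE 0.14, edgeR adjusted p = 0.0705). With total counts it was called lower (log2 -0.76, SE 0.16, edgeR adjusted p = 0.00154). Its direction is thus set by the scaling. After the length and GC correction its log2 fold change was 0.04.

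mt-Nd5 showed the same dependence. It held 0.0300%, 0.0437% and 0.0423% of counts in wild type, against 0.0293%, 0.0319% and 0.0320% in knockout, and the groups overlapped through wild type replicate 1. It was called higher with TMM (log2 0.82, SE 0.11, edgeR adjusted p = 5.00e-04) and lower with total counts (log2 -0.32, edgeR adjusted p = 0.0443). mt-Nd4 held 0.0501%, 0.0648% and 0.0644% in wild type, against 0.0606%, 0.0681% and 0.0717% in knockout. It rose with TMM (log2 1.29, SE 0.09, edgeR adjusted p = 6.05e-06) and did not pass with total counts (log2 0.16).

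The contrast within complex I was large. Per count of mt-Nd2 there were 13.9, 12.1 and 13.3 counts of mt-Nd1 in wild type, against 31.4, 30.3 and 30.8 in knockout, a 2.36-fold difference. For mt-Co3 per mt-Nd2 the values were 15.5, 10.4 and 12.6 against 66.1, 66.7 and 59.0, a 5.04-fold difference. Neither ratio overlapped between groups (exact permutation p = 0.10 each, adjusted over 7 ratios p = 0.117). Of the 10 members mt-Co3 had the largest and mt-Nd2 the smallest log2 fold change (2.73 and 0.38 with TMM). Ratios with such an extreme member restate these fold changes and are no separate test of them.

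mt-Cytb encodes cytochrome b, the only mitochondrially encoded subunit of complex III. Its counts made up 0.503%, 0.599% and 0.648% of wild-type and 0.676%, 0.713% and 0.893% of knockout libraries, and it rose with TMM (log2 1.52, SE 0.11, edgeR adjusted p = 6.81e-06) and with total counts (log2 0.38). mt-Atp6 encodes the ATP synthase subunit that forms part of the proton channel. It held 0.348%, 0.505% and 0.528% in wild type, against 0.580%, 0.571% and 0.694% in knockout, and rose with TMM (log2 1.56, SE 0.14, edgeR adjusted p = 2.42e-05) and with total counts (log2 0.42). The length and GC correction lowered its log2 fold change to 0.96.

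mt-Rnr2 is the RNA of the large mitochondrial ribosomal subunit and the only member that is not an mRNA. It held 0.201%, 0.264% and 0.261% of counts in wild type, against 0.416%, 0.426% and 0.406% in knockout. It rose 3.78-fold with TMM (log2 1.92, SE 0.09, edgeR adjusted p = 3.35e-07) and 1.72-fold with total counts.

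Wild type replicate 1 held the lowest share of counts of the 3 wild-type libraries for all 10 members, and the lowest TMM-scaled CPM for 9. Without it, 9 members were again called higher and the fold changes of mt-Nd1 and mt-Nd2 were 1.51 and 0.23 on the log2 scale. The authors' deposited table classes 8 members as up, while mt-Nd2 (log2 fold change 0.39) and mt-Nd5 (0.83) are classed there as stable. For both, the adjusted p of the authors' DESeq2 comparison was under 0.05, so stable there does not mean that no difference was found.

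**Figure D3:**
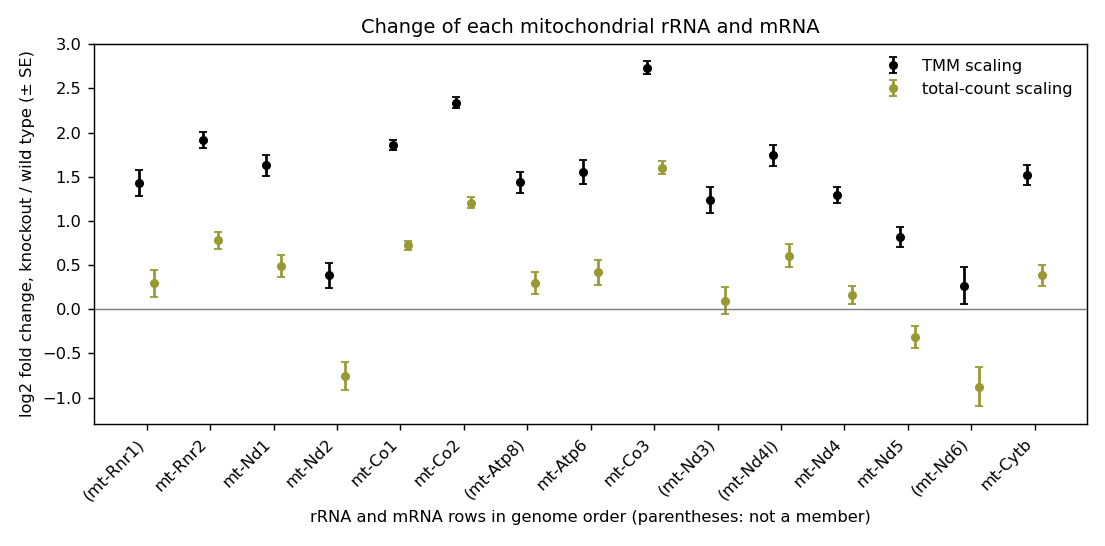
Log2 fold change of knockout over wild type with its standard error (vertical axis) for the mitochondrial rRNA and mRNA rows in genome order, in black with TMM and in olive with total-count scaling. Neighbouring genes differ by more than their errors, as for mt-Nd1 at 1.63 and mt-Nd2 at 0.38 with TMM, and mt-Nd2, mt-Nd5 and mt-Nd6 lie below 0 with total counts.

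The composition of the family shows these differences free of any scaling between libraries. mt-Co3 made up 14.5%, 12.8% and 13.8% of the family total in wild type, against 25.3%, 26% and 23.6% in knockout, a gain of 11.3 percentage points. mt-Co2 went from 2.07 ± 0.147% to 2.86 ± 0.111% (SD, n = 3 each). These 2 transcripts stood higher in every knockout library.

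Lower shares in every knockout library were found for 6 members. mt-Cytb made up 21.8%, 21.1% and 21.7% in wild type, against 15.6%, 16.3% and 18.6% in knockout. mt-Atp6 went from 16.8 ± 1.54% to 13.6 ± 0.732%, and mt-Nd1 from 14.1 ± 1.0% to 12 ± 0.222% (n = 3 each). mt-Nd2 stood at 0.936%, 1.22% and 1.10% in wild type, against 0.384%, 0.390% and 0.399% in knockout, the largest relative difference in the family at -1.47 on the log2 scale. mt-Nd5 went from 1.42 ± 0.119% to 0.690 ± 0.0331% and mt-Nd4 from 2.2 ± 0.0683% to 1.48 ± 0.0783%.

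The shares of mt-Co1 (18.1 ± 1.91% and 17.9 ± 0.685%) and mt-Rnr2 (8.92 ± 0.326% and 9.26 ± 0.703%) overlapped between groups. The exact permutation p was 0.10 for each of the 8 members whose shares did not overlap, 0.125 adjusted over the 10 shares, and 1.0 and 0.50 for mt-Co1 and mt-Rnr2. Taken by complex, mt-Co1, mt-Co2 and mt-Co3 made up 33.9 ± 2.76% of the family in wild type and 45.7 ± 1.74% in knockout. The 4 complex I members made up 18.8 ± 1.29% and 14.6 ± 0.187% (n = 3 each, exact permutation p = 0.10 for both). Shares must sum to the whole, so a gain by mt-Co3 lowers the others.

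**Figure D4:**
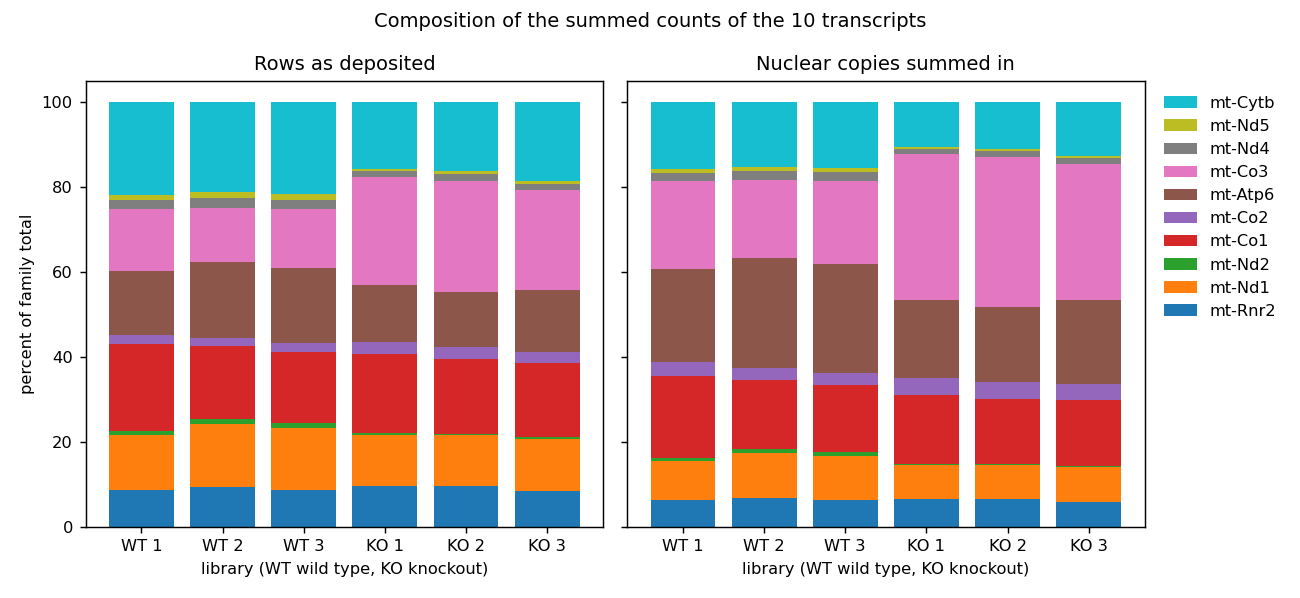
Stacked bars of each transcript's percent of the family total in the 6 libraries, with rows as deposited on the left and with the near-identical chromosome 1 copies summed in on the right. The pink mt-Co3 segment is larger in every knockout than in every wild-type library in both panels.

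Summing in the copies changed the levels more than the contrast. mt-Co3 then made up 19.6 ± 1.16% of the family in wild type and 33.9 ± 1.68% in knockout, and mt-Cytb, which has no such copy, 15.4 ± 0.264% and 11.4 ± 1.12% (n = 3 each). The order of the largest shares in wild type changed, from mt-Cytb first with 21.5% to mt-Atp6 first with 24.4%. If each shared read had been counted in both rows, this sum would count it more than once.

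Compared per length, in FPKM, the members spanned 31.0-fold to 33.5-fold within a wild-type library and 82.4-fold to 88.4-fold within a knockout library. In all 3 wild-type libraries mt-Atp6 stood highest, at 5647 ± 1267 FPKM, followed by mt-Cytb (4256 ± 589), mt-Co3 (3943 ± 462), mt-Nd1 (3368 ± 693), mt-Co1 (2631 ± 123) and mt-Rnr2 (1278 ± 203). Neighbours from mt-Atp6 down to mt-Co1 differed by less than the sum of their SDs. mt-Co2 (681 ± 56.3), mt-Nd4 (362 ± 55.4), mt-Nd2 (239 ± 59.8) and mt-Nd5 (177 ± 36.5) followed, and the last pair differed by less than the sum of their SDs.

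In knockout mt-Co3 moved to first place in all 3 libraries, at 11953 ± 174 FPKM, ahead of mt-Atp6 at 7534 ± 850. mt-Nd2 (142 ± 11.0) and mt-Nd5 (142 ± 6.12) were then level at the bottom. Since FPKM is tied to the total of each library, it moves as total-count scaling does. How many of the reads shared with their copies the values of mt-Atp6, mt-Co1, mt-Co2, mt-Co3 and mt-Nd4 hold is not known. With its copy added, mt-Co3 came to 7874 FPKM in wild type and 24005 in knockout. This sum counts a shared read more than once if it was counted in both rows.

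The 26 other mitochondrially encoded rows in the table are the 3 small mRNAs and mt-Nd6, the small ribosomal RNA mt-Rnr1 and 21 tRNAs. Of 24 tested, 10 rose with TMM, 0 fell and 14 did not pass, at a median log2 fold change of 0.50. Total-count scaling gave 3 higher and 12 lower, at a median of -0.63. For all genes tested the shares called higher and lower were 17.2% and 14.4% with TMM, and 4.23% and 70.7% with total counts. mt-Nd4l rose by 1.74 (SE 0.12), mt-Atp8 by 1.44 (SE 0.12), mt-Rnr1 by 1.43 (SE 0.14) and mt-Nd3 by 1.24 (SE 0.14). mt-Nd6, the only mRNA encoded on the other strand, stood at 0.27 (SE 0.21, edgeR adjusted p = 0.39) and was called lower with total counts (-0.88).

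Of the 19 tRNA rows tested 6 rose and 13 did not pass with TMM, while total-count scaling gave 1 higher and 11 lower. Beside these stand 17.2% of all genes called higher with TMM, and 4.23% higher and 70.7% lower with total counts. Some of these rows hold few counts, as mt-Th with 3 to 23 and mt-Tl2 with 3 to 32 per library. A row that did not pass is thus not shown to be unchanged. mt-Ts1, with the lowest p among the other rows, rose by 1.5 (SE 0.07), and the remaining 5 were mt-Ta, mt-Tn, mt-Tc, mt-Ty and mt-Tl1. mt-Ts1 lies on the minus strand, from 6870 to 6938, and overlaps the end of mt-Co1 at 6872. mt-Nd6 likewise overlaps mt-Nd5, mt-Atp8 overlaps mt-Atp6, and mt-Nd4l overlaps mt-Nd4. No source used here says whether counting used strand, which bears on mt-Ts1 with mt-Co1 and on mt-Nd6 with mt-Nd5. The genes of the other pairs share a strand, so strand could not separate their overlapping bases. Reads of all these neighbours cannot be told apart with certainty. The 10 members held 95.2 to 95.5% of all mitochondrial counts in wild type and 96.5 to 96.7% in knockout.

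Nuclear subunits of the same complexes also rose with TMM. Of 75 tested, 61 rose, 1 fell and 13 did not pass, at a median log2 fold change of 0.59. Among all genes tested 17.2% were called higher and 14.4% lower. Complex IV gave 12 of 12 higher at a median of 0.93, and Cox5a (1.47, SE 0.05) and Cox6a1 (1.77, SE 0.08) had the lowest p. Complex V gave 18 of 18 at 0.90, with Atp5b, the catalytic beta subunit, at 2.07 (SE 0.07), Atp5g3 at 1.97 and Atp5c1 at 1.61.

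Complex III gave 9 of 9 at 0.77, with Uqcrh at 1.42 (SE 0.06). Complex I gave 22 higher, 1 lower and 13 not passing of 36 at 0.36, with Ndufc2 at 1.09 (SE 0.09) and Ndufa12 lower at -0.36 (SE 0.11). mt-Co1, mt-Co2 and mt-Co3 lay above all 12 nuclear complex IV subunits, and mt-Nd1 and mt-Nd4 above all 36 of complex I. mt-Nd2 and mt-Nd5 lay within the range of the complex I subunits, mt-Cytb (1.52) above all 9 of complex III, and mt-Atp6 (1.56) below Atp5b, Atp5g3 and Atp5c1. These are comparisons of fitted values and were not tested. Under total-count scaling 8 of the 75 passed as higher and 60 as lower (median -0.54), against 4.23% and 70.7% of all genes. The 8, which include Cox5a, Cox6a1, Uqcrh, Atp5b, Atp5g3 and Atp5c1, were higher under both scalings, and Ndufa12 was lower under both. After the length and GC correction 47 of the 75 were called higher, against 18.1% of all genes, and more were called lower than without it.

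**Figure D5:**
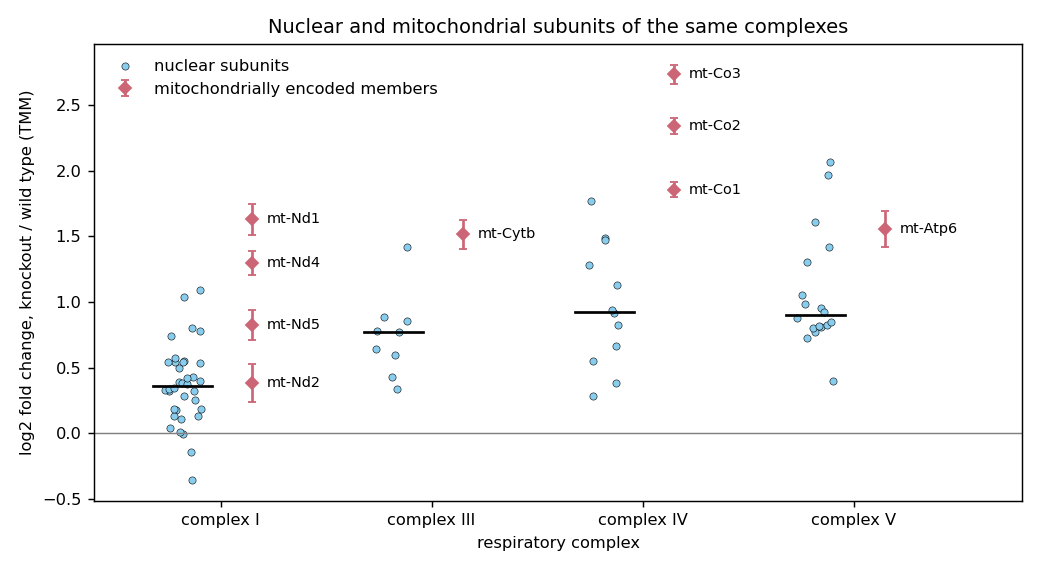
Log2 fold change with TMM (vertical axis) for nuclear subunits (blue points, black bar at the median) and for mitochondrially encoded members (red diamonds with standard error) of complexes I, III, IV and V. mt-Co3 at 2.73, mt-Co2 at 2.34 and mt-Co1 at 1.86 lie above every nuclear subunit of complex IV.

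Genes that make and handle mitochondrial RNA were read beside all genes tested, of which 17.2% were called higher and 14.4% lower with TMM. Of 38 genes of mitochondrial transcription and RNA processing 1 rose with TMM, 12 fell and 25 did not pass, at a median log2 fold change of -0.37. The gene that rose was Polrmt, the mitochondrial RNA polymerase, by 0.50 (SE 0.17, edgeR adjusted p = 0.0482). Tfam, which packages mitochondrial DNA and helps start its transcription, did not pass, with 7.86 ± 1.47 CPM in the controls against 7.88 ± 0.900 CPM in the knockout libraries (n = 3 each, edgeR adjusted p = 0.992). The tRNA 3′ end nuclease gene Elac2 fell by 1.09 (SE 0.19), and Rexo2, an oligoribonuclease, fell by 0.99 (SE 0.09). Angel2 and Fastkd3 fell by 0.89 and 1.08. Polrmt and Tfam were named after their values were seen.

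Of 24 genes of mitochondrial DNA maintenance 1 rose, 6 fell and 17 did not pass, at a median of -0.26. Ssbp1, the mitochondrial single-stranded DNA binding protein, fell by 0.63 (SE 0.10) and Atad3a by 1.10 (SE 0.13), while Slc25a4, the adenine nucleotide carrier, rose by 0.50 (SE 0.07). With total counts 0 and 37 of the 38 genes of transcription and processing, and 0 and 23 of these 24, were called higher and lower. Of all genes tested, 17.2% and 14.4% were called higher and lower with TMM, and 4.23% and 70.7% with total counts.

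Of 26 mitochondrial translation factors 8 rose, 7 fell and 11 did not pass, at a median of -0.18. C1qbp (log2 0.88, SE 0.06) and Tufm, the elongation factor Tu (0.61, SE 0.08), rose and Gfm2, a ribosome recycling factor, fell by 0.76 (SE 0.15). Of 24 regulators of mitochondrial number and quality 5 rose, 4 fell and 15 did not pass, at a median of -0.06. Hspd1, the matrix chaperonin, rose by 0.79 (SE 0.07), Myc by 1.07 (SE 0.10) and Clpp, a matrix protease, by 0.45 (SE 0.06), while Lonp1, another matrix protease, fell by 0.76 (SE 0.13). Under total-count scaling 1 of the 26 passed as higher and 22 as lower, and 0 and 23 of the 24. The shares of all genes called higher and lower were 17.2% and 14.4% with TMM, and 4.23% and 70.7% with total counts. The TMM calls among the regulators lay near the shares of all genes.

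The genes most like the family total were sought among 1016 nuclear genes with a mean of at least 100 CPM, by the root mean square distance between centred log2 CPM over the 6 libraries. The nearest were Stmn1 (distance 0.0882), Rpl4 (0.0934), Ftl1 (0.103), Selenof (0.106) and P4hb (0.106). They encode a tubulin-binding protein, a ribosomal protein, ferritin light chain, a selenoprotein and protein disulphide isomerase. Among the members mt-Rnr2 (0.0760) and mt-Co1 (0.0917) lay nearest to the total, and mt-Nd2 (0.742) and mt-Nd5 (0.524) farthest. With 2 groups of libraries this distance mostly reflects the difference between groups.

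Markers of blood cell types were checked because cell types differ in mitochondrial content. Among all genes tested 17.2% were called higher and 14.4% lower with TMM, and 4.23% and 70.7% with total counts. All 12 stem and progenitor markers were detected, 2 rose and 3 fell with TMM, and their summed level was 211 to 217 CPM in wild type and 230 to 236 CPM in knockout. Kit, the stem cell factor receptor, stood at 13.7 ± 1.78 and 16.9 ± 0.276 CPM and Cd34 at 106 ± 4.54 and 102 ± 0.483 CPM (n = 3 each), and neither passed with TMM. Eosinophil and basophil markers gave 9 higher and 0 lower of 13 tested, summing to 6219 to 7427 CPM against 47043 to 52754 CPM, of which Prg2, eosinophil major basic protein, made up 5156 ± 595 and 39685 ± 2839 CPM.

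Neutrophil markers gave 8 higher and 0 lower of 12 and summed to 80651 to 90464 CPM against 247410 to 261710 CPM. Most of that sum came from Mpo (49745 ± 2057 and 149600.0 ± 4269 CPM, n = 3 each) and Elane (31661 ± 2769 and 87359 ± 3781 CPM). Both are granule protein genes that myeloid progenitors also express. Genes of later neutrophil stages were mixed. S100a8 (log2 1.85), S100a9 (1.31), Retnlg (0.76), Cxcr2 (0.64) and Ngp (0.37) rose with TMM, while Camp, Ltf, Mmp8 and Ly6g did not pass. B and plasma cell markers gave 3 higher and 4 lower of 11, at 13356 to 14349 CPM against 41729 to 43878 CPM. Erythroid markers gave 4 higher and 1 lower of 9, at 1432 to 1923 CPM against 4769 to 5735 CPM. T and NK cell markers summed to 13.8 to 15 CPM and 8.02 to 9.30 CPM, with 0 higher and 1 lower of 5. Macrophage markers summed to 113 to 118 CPM and 110.0 to 116 CPM, with 1 higher and 1 lower of 7. Cd3e and Cd8a were not analysed here. Under total-count scaling the higher and lower calls were 0 and 11 for stem and progenitor markers, 6 and 4 for eosinophil and basophil, 4 and 4 for neutrophil, 2 and 7 for B and plasma cell, 4 and 4 for erythroid, 0 and 5 for T and NK cell, and 0 and 4 for macrophage markers. No listed marker in the table was at 0 in every library. The part of these cell types in the mitochondrial differences was not tested.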

How the data were processed

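One table of 18491 genes was used. It holds raw counts per gene and library as deposited, length-scaled values per library with no unit in the header, and the columns of the authors' DESeq2 comparison. The deposited length-scaled values were taken as FPKM, because counts divided by length and by these values were constant among the members within 0.0101% in each library. The deposited log2 fold changes, p-values, mean signal and test score were made by the authors and only the first were printed. Per the submitters' processing notes, mm10 was the build, and the tools were HISAT2 2.2.1, featureCounts 2.0.1 and fastp 0.22.0, with DESeq2 1.32.0 for the authors' comparison. No source used here gives the treatment of reads that map to several places. TruSeq RNA libraries were sequenced on a NovaSeq instrument, per the labels.

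Genes were matched by ID to GENCODE vM21 (GRCm38, also called mm10), with 18457 matched and 34 not. Counts were filtered with filterByExpr (15474 genes kept), scaled with TMM and tested with glmQLFit and glmQLFTest in edgeR 4.0.16 (R 4.3.3), two-sided, fitting group alone. The standard error is the log2 fold change divided by the square root of F. CPM uses TMM-scaled library sizes. Shares and ratios were tested by exact permutation on log2 values, and the ratios were not among the planned comparisons. Copies were found with blastn 2.17.0 against annotated pseudogenes (at least 100 aligned bases). Members and lists were chosen with earlier results of these data known. Genes named from each list are the 3 of lowest p and the largest fall among called genes, and Polrmt and Tfam were added. The values of 2 genes that the rules name are not reported here. The procedure was tested on simulated counts. Alternatives were other scalings, DESeq2 1.42.0, limma-voom 3.58.1, no filter, a replicate block, a smooth of log counts on exon length and GC content, leaving out each library, other denominators and, chosen after seeing the data, copies summed in.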

Additional observations from a re-analysis of the deposited data

How the results depend on the processing

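Members called higher numbered 7 to 10 and all members but mt-Nd2 and mt-Nd5 kept their direction under every scaling, test, filter and left-out library tried. With total counts mt-Nd2 stood at -0.76 and mt-Nd5 at -0.32, so that 2 members were called lower, and mt-Nd4 at 0.16 was not called. mt-Nd2 passed with DESeq2 (log2 0.40, adjusted p = 0.0137), with DESeq2 size factors in edgeR (0.41), with limma-voom (0.40) and in the replicate block (0.41). After the length and GC correction 9 members were called higher, and mt-Co3 changed by 2.28, mt-Co1 and mt-Rnr2 by 1.90 each, mt-Co2 by 1.81 (2.34 without it), mt-Nd1 by 1.27, mt-Atp6 by 0.96 (1.56 without it) and mt-Nd2 by 0.04. With total counts 655 genes were called higher and 10937 lower, 8 and 60 of the nuclear complex subunits, and 1 and 82 of the 88 genes of mitochondrial transcription, DNA maintenance and translation (10 and 25 with TMM). With the length and GC correction 47 nuclear subunits were called higher (61 without it) and 8 lower. Of all genes, 18.1% and 11.3% were called higher and lower in that setting. In the replicate block with this correction 1484 genes, 8 nuclear subunits and 15 of the 88 genes were called lower. No pairing of same-numbered libraries is stated, and their deviations showed little correlation (0.041, -0.0051 and 0.0477), which cannot decide whether they were paired. The replicate block is therefore given only here. It called 2467 genes higher and 1906 lower, and the exact paired sign-flip test of shares cannot go below p = 0.25. Leaving out 1 library gave 1356 to 2142 genes lower (1356 without wild type replicate 2, 1419 without wild type replicate 3) and 0 to 1 nuclear subunits lower. It gave log2 differences in the share of mt-Co1 of -0.0691 to 0.0681. The share of mt-Co1 stood at 0.0012 over all mitochondrial rows, and that of mt-Rnr2 at -0.0323 with copies summed in. The family total kept its direction in all 12 alternatives. Counts of 8101 to 626623 per member and library leave little counting error, so that the spread between 3 libraries limits precision.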

Other observations

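Lars2, which encodes the mitochondrial leucyl-tRNA synthetase, differed from the other translation factors. It stood at 510, 154 and 144 CPM in wild type and 3576, 3062 and 2604 CPM in knockout (log2 3.52, SE 0.46, edgeR adjusted p = 3.80e-04), and rose with total counts too (log2 2.40). Wild type replicate 1, the library with the lowest mitochondrial share, held the highest wild-type level.

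Gm13341, a diverged copy of mt-Co2 on chromosome 2 (95.9% identity over 684 bases), had 1339 and 1802 counts in wild type replicates 1 and 2, 0 in wild type replicate 3, and 4858, 5440 and 4297 in knockout. The neighbouring copy of mt-Co1, Gm13340, had 577, 788 and 792 counts in wild type and 1397, 1292 and 1167 in knockout. No cause was tested for the 0.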
